A study of Mus musculus with 20 samples.

Results

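Knockdown of Tet2 was compared with knockdown of Mbd3 in M3 cells kept without drug, using 4 of the 20 libraries of the series. M3 is a mesenchymal clone of Py2T, a cell line from a mammary tumour of the MMTV-PyMT mouse, in which the viral middle T oncogene drives breast cancer. Both groups were M3 cells that carried a short hairpin RNA (shRNA), against Tet2 (shTet2) in 2 libraries and against Mbd3 (shMbd3) in the other 2. Both groups are derivatives of 1 clone and are named by 1 target each, so a property of the carrying population and an effect of the target cannot be told apart. M3 cells with a control shRNA (shControl), and all 3 kinds given 2 µM of the class I histone deacetylase inhibitor CI994 for 72 hours, supplied the other 8 libraries measured in the same unit. RNA came from 2 independent experiments per the labels. Nothing in them says that the replicate number marks an experiment, so p-values measure the spread between libraries, part of which may be technical.

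Tet2 is a dioxygenase that oxidises 5-methylcytosine, a step towards removal of DNA methylation. Mbd3 is a subunit of NuRD, a complex that joins nucleosome remodelling by Chd4 to histone deacetylation by Hdac1 and Hdac2 and is mostly known for keeping genes low. In breast cancer cells both have been studied for the passage between epithelial and mesenchymal states, in which cells lose E-cadherin junctions, gain vimentin and fibronectin, and can return.

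The 4 libraries held 20077243 to 23957128 reads, and levels are CPM, the reads of a gene divided by those of its library and scaled to 1000000. A library's 0 allows up to 3 reads, which covers counting error only. Of 24454 genes listed, 12808 reached 0.5 CPM in at least 2 of the 12 libraries and were tested. Differences are shTet2 minus shMbd3 on the log2(CPM + 0.5) scale, which understates those of low genes, and a gene passed at an adjusted p under 0.05. The spread was estimated over all 12 libraries. The 2 untreated shControl libraries differed from each other with an SD of 0.703 on the log2 scale, against 0.206 to 0.243 in the other 5 pairs, and Mbd3 in 1 of them went against its label. Neither enters the contrast, but they widen the shared spread, so values without them stand beside the targets, the state genes, the changes with CI994 and the gene lists.

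In all, 2453 genes passed, 19.2% of those tested, of which 1220 (9.53%) were higher and 1233 (9.63%) lower in shTet2. Without the untreated shControl pair 5796 passed (45.3%), 2917 higher (22.8%) and 2879 lower (22.5%). Scaling by library size alone moved the median difference of all genes from -0.002 to -0.08, and 39.2% of its 2596 calls were higher, against 49.7% in the main test. A difference of at least 1 on the log2 scale was reached by 823 of the called genes (6.43% of those tested), 396 of them higher (3.09%) and 427 lower (3.33%). Leaving out any 1 of the 4 libraries left 1044 to 1121 calls, and 838 of the 2453 passed under all 4 omissions. Every called gene named here is among those 838 unless its values without a library are given.

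**Figure D1:**
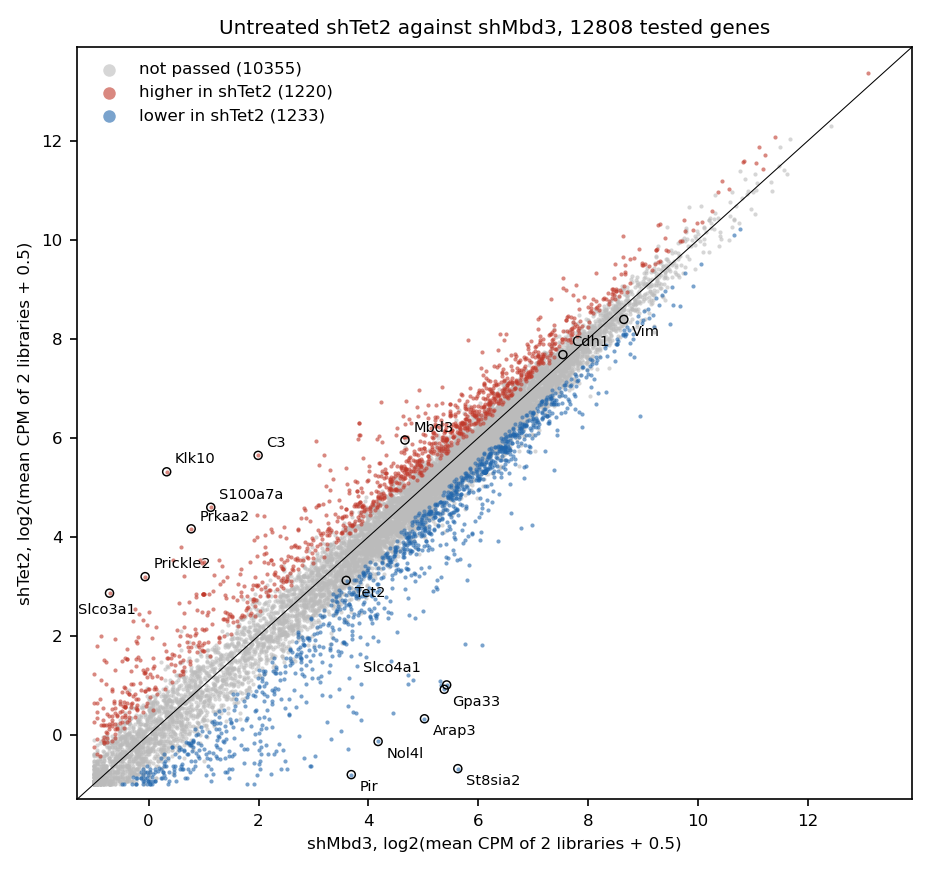
Mean level of each tested gene in the 2 untreated shTet2 libraries (vertical axis) against the 2 untreated shMbd3 libraries (horizontal axis), both as log2(CPM + 0.5). Red genes were higher in shTet2 (1220), blue genes lower (1233) and grey genes did not pass (10355); circles mark the 6 largest differences each way, the 2 targets, Cdh1 and Vim.

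The targeted genes lay in the direction of their labels, with overlap in neither. Lack of overlap was common, at 73.6% of all tested genes. Tet2 (gene 214133, GRCm38 chromosome 3, 133463677-133545136) measured 8.41 and 7.97 CPM in shTet2 and 10.9 and 12.4 CPM in shMbd3. The control libraries held 15.1 and 13.8 CPM, so Tet2 was lowest in shTet2 but not absent. Its difference between the knockdowns, -0.39 ± 0.18 (SE), did not pass by limma (adjusted p = 0.183, and 0.0705 without the untreated shControl pair). Mbd3 (gene 17192, chromosome 10, 80392539-80399531) measured 22.1 and 27.7 CPM in shMbd3 and 56.9 and 66.3 CPM in shTet2. That difference was 1.39 ± 0.81, with adjusted p = 0.280 over all 12 libraries and 3.87e-05 without the untreated shControl pair, where Mbd3 read 5.40 CPM in replicate 1 and 66.5 CPM in replicate 2.

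Without CI994 the 2 other TET dioxygenases differed more clearly than Tet2 itself. Tet1 (chromosome 10, 62804570-62887469) had 1 and 0 reads in the shTet2 libraries and 32 and 46 reads in shMbd3. This is a level 69.4 times higher in shMbd3, with a 95% interval of 12.1 to 2780 from counting error alone, and Tet1 stood at 3.94 and 2.25 CPM in shControl. Tet3 (chromosome 6, 83362373-83457208) measured 46.5 and 46.4 CPM in shTet2 and 86.9 and 84.0 CPM in shMbd3, a difference of -0.78 ± 0.12 (adjusted p = 0.00272). The control libraries were at 44.8 and 61.9 CPM, nearer to shTet2. All 3 TET genes were thus lower in both shTet2 libraries than in both shMbd3 libraries, of which Tet1 and Tet3 passed. That order of the 4 libraries held for 44.3% of all tested genes, so for Tet2 it says little by itself. In the libraries treated with CI994, Tet2 (-0.63, adjusted p = 0.0386 by limma) and Tet3 (-0.55, 0.013) passed. Tet1 did not pass there (-0.82, 0.0637).

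Among 26 tested genes of DNA methylation and its removal, 2 were higher and 5 lower, with a median of -0.04. Cxxc5, a CXXC zinc-finger protein that binds unmethylated CpG, showed the widest gap of the list. It measured 1.09 and 0.647 CPM in shTet2 and 12.3 and 13.2 CPM in shMbd3, with shControl between them at 3.39 and 3.93 CPM (-3.23 ± 0.21, adjusted p = 4.12e-05). Dnmt3a, a de novo DNA methyltransferase, was lower in shTet2 by -0.85 ± 0.13, and Mbd5, of the methyl-CpG-binding domain family, was higher by 0.97 ± 0.16. None of 16 NuRD subunits and none of 16 histone deacetylases passed by limma. Without the untreated shControl pair 3 NuRD subunits were higher and 5 lower, Mta1 among the latter (-0.48, adjusted p = 0.000363, against 0.0632), and 2 deacetylases were higher and 2 lower. The higher NuRD subunits include Mbd3 (1.39), the target of shMbd3, whose direction follows from the design. Hdac1 measured 82.0 and 80.2 CPM in shTet2 against 83.9 and 84.5 CPM, Hdac2 273 and 226 CPM against 324 and 288 CPM, and Mbd2, the alternative methyl-binding subunit, 156 and 155 CPM against 152 and 143 CPM.

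Of 28 Polycomb and histone methylation genes, 1 was higher and 4 were lower in shTet2. Cbx2, a chromodomain subunit of Polycomb repressive complex 1, measured 11.9 and 10.7 CPM in shTet2 and 51.9 and 49.2 CPM in shMbd3 (-2.03 ± 0.18). Ezh1, a histone H3 lysine 27 methyltransferase, was lower by -0.98 ± 0.12 and Kdm2b, a histone demethylase that recruits Polycomb to CpG islands, by -0.77 ± 0.11. Cbx2 and Ezh1 lie on chromosome 11, whose genes were lower in shTet2 as a whole. Off that chromosome 1 gene of this list was higher and 2 were lower.

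Cdh1, Epcam and Vim, which mark the epithelial and mesenchymal states, lay nearer to each other in the 2 knockdowns than either lay to shControl. Cdh1, which encodes E-cadherin, measured 202 and 207 CPM in shTet2 and 170 and 202 CPM in shMbd3, against 16.3 and 25.7 CPM in shControl. Epcam, an epithelial adhesion protein, measured 179 and 193 CPM in shTet2 and 228 and 252 CPM in shMbd3, against 36.7 and 41.9 CPM in shControl. Vim, which encodes the mesenchymal filament vimentin, measured 322 and 351 CPM in shTet2 and 396 and 409 CPM in shMbd3, against 1461 and 1525 CPM in shControl. For these 3 genes the 4 knockdown libraries lay on the same side of both control libraries. The further state markers given below did not all place the knockdowns on the epithelial side of shControl. The differences between knockdowns were 0.23 ± 0.16 for Cdh1, -0.28 ± 0.11 for Epcam and -0.17 ± 0.11 for Vim, none of which passed (adjusted p = 0.352, 0.105 and 0.317). Without the untreated shControl pair Cdh1 (0.0296) and Epcam (0.0182) passed, in opposite directions, and Vim did not (0.119).

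**Figure D2:**
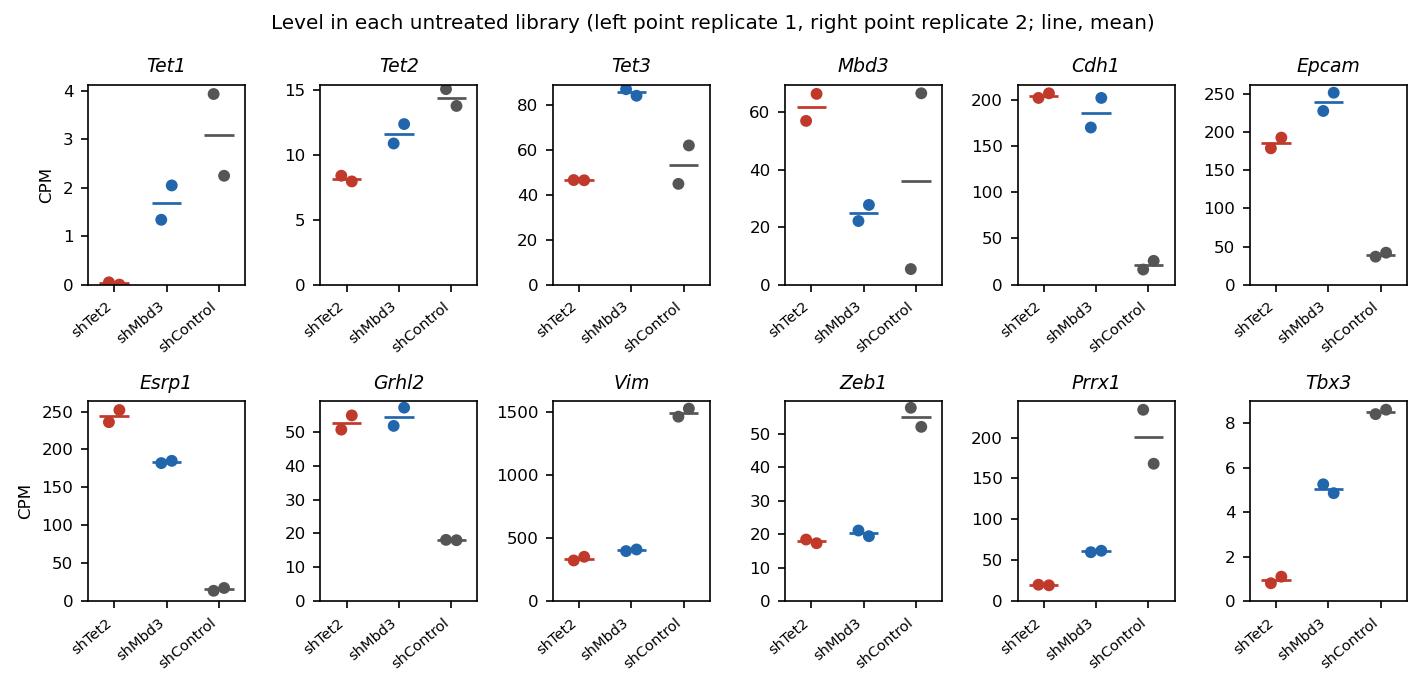
Level in CPM (vertical axes, each from 0) of 12 genes in each untreated library of shTet2 (red), shMbd3 (blue) and shControl (grey), with a line at the mean of the 2 libraries. For Cdh1, Epcam, Vim and Zeb1 the knockdowns lie nearer to each other than to shControl, whereas Tet1, Prrx1 and Tbx3 differ between the knockdowns.

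Nor did the difference of 9 further state markers pass. Cdh2 (N-cadherin), a mesenchymal marker, measured 329 and 325 CPM in shTet2 and 308 and 315 CPM in shMbd3. Both groups lay above shControl, at 243 and 248 CPM. Fn1 (fibronectin) measured 2232 and 2326 CPM against 2009 and 2290 CPM, with shControl at 2358 and 4100 CPM. Zeb1, a zinc-finger repressor of Cdh1, measured 18.4 and 17.3 CPM against 21.1 and 19.4 CPM, with shControl at 57.8 and 52.1 CPM. Its relative Zeb2 measured 39.7 and 37.5 CPM against 46.8 and 48.4 CPM, with shControl at 61.5 and 47.2 CPM. Grhl2, a transcription factor of epithelial genes, measured 50.7 and 54.9 CPM in shTet2 and 51.8 and 57.2 CPM in shMbd3, with overlap. In shControl it measured 18.1 and 18.0 CPM. Ovol2, an epithelial repressor of Zeb1, stayed at 0.519 to 1.39 CPM in all 4 libraries, also with overlap. The repressors Snai1 (0.63 ± 0.33), Snai2 (0.44 ± 0.28) and Twist1 (0.38 ± 0.16) did not pass either. Snai2 measured 10.6 and 6.18 CPM in shTet2 and 6.64 and 5.89 CPM in shMbd3, above shControl at 5.67 and 4.46 CPM. Twist1 measured 26.8 and 25.6 CPM against 20.7 and 21.9 CPM, below shControl at 37.6 and 28.7 CPM. Snai1 in shControl, at 1.69 and 5.08 CPM, overlapped shMbd3, at 4.17 and 5.13 CPM. Of these 9 genes, Snai1 and Twist1 passed without the untreated shControl pair (adjusted p = 0.00474 and 0.00616).

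Other regulators of the transition did differ, and of 21 tested EMT transcription factors 1 was higher and 5 were lower, with a median of -0.09. Prrx1 (chromosome 1, 163245119-163315145), a homeobox factor of mesenchymal cells, measured 20 and 19.3 CPM in shTet2, 59.8 and 61.6 CPM in shMbd3 and 234 and 168 CPM in shControl. Its difference was -1.52 ± 0.18 (adjusted p = 0.000614), with the 3 groups fully apart. Tbx3, a T-box repressor of Cdh1, followed the same order at 0.803 and 1.10 CPM, 5.26 and 4.86 CPM, and 8.42 and 8.62 CPM (-1.88 ± 0.23). Fosl1, an AP-1 subunit, was the factor that was higher, with 143 and 139 CPM in shTet2 and 86.1 and 72.1 CPM in shMbd3 (0.92 ± 0.15).

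Of 13 epithelial transcription and splicing genes, 3 were higher and 1 was lower in shTet2. Klf4, a Krüppel-like factor of epithelial barrier and self-renewal programmes, measured 24.5 CPM in both shTet2 libraries and 7.47 and 8.61 CPM in shMbd3 (1.64 ± 0.16, adjusted p = 0.000184). Esrp1, which sets epithelial splice forms, measured 236 and 252 CPM in shTet2 and 182 and 185 CPM in shMbd3, against 13.6 and 17.3 CPM in shControl. Its difference of 0.50 ± 0.13 passed (adjusted p = 0.0254) but not without shTet2 replicate 1 (0.0960) or 2 (0.150), or without shMbd3 replicate 1 (0.124) or 2 (0.124).

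Junction genes moved in both directions. Of 12 cadherins and catenins none was higher and 2 were lower by limma. Tight junction genes gave 4 higher and 2 lower of 21, led by the polarity protein Pard6b, at 68.2 and 68.3 CPM in shTet2 and 42.3 and 40.2 CPM in shMbd3 (0.81 ± 0.11). Desmosome and keratin genes gave 2 higher and 3 lower of 15, with a median of -0.04. Off chromosome 11 these counts were 2 and 1 of 11, with a median of 0.47. The desmosomal plaque protein periplakin (Ppl) measured 94.9 and 108 CPM in shTet2 and 33.1 and 41.1 CPM in shMbd3 (1.54 ± 0.15), whereas the desmosomal cadherin Dsg2 measured 1.70 and 1.74 CPM against 7.60 and 7.09 CPM (-1.74 ± 0.23). Among 20 epithelial protease, kinase and trafficking genes 2 were higher and 4 were lower, among them Cd24a, a surface glycoprotein, at 309 and 318 CPM against 711 and 732 CPM (-1.11 ± 0.18), and the myosin Myo5c (-0.72 ± 0.11). The letters CAGGTG or CACCTG, an E-box bound by factors of the Zeb and Snail families, stood in the 300-base promoters of 3 of the 7 higher and 5 of the 8 lower genes of these 5 epithelial lists that have a promoter in the table, against 20.4% of tested genes.

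Among 19 genes of the mesenchymal cytoskeleton and surface, 5 were higher and 4 were lower. The hyaluronan receptor Cd44 measured 1283 and 1239 CPM in shTet2 and 649 and 591 CPM in shMbd3 (1.12 ± 0.14), and Cav1, the coat protein of caveolae, 696 and 755 CPM against 359 and 363 CPM (1.09 ± 0.12). Mme, a membrane peptidase, had 27 and 17 reads in shTet2 against 0 and 1 read in shMbd3. On the lower side were the adhesion molecule Ncam1 (21.8 and 21.5 CPM against 45.1 and 43.4 CPM, -0.93 ± 0.13) and the matrix protein periostin (Postn), at 0.283 and 0.0996 CPM against 1.25 and 1.34 CPM.

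Several of the largest differences were in genes near absent from one of the 2 populations. St8sia2 (chromosome 7, 73939119-74013727), a polysialyltransferase that modifies Ncam1, had 2 and 3 reads in shTet2 and 1210 and 1066 reads in shMbd3. In CPM these are 0.0945 and 0.149 against 50.5 and 47.6, a ratio of 405 with a 95% counting interval of 173 to 1250, and shControl lay between at 14.0 and 11.3 CPM. Pir, an iron-binding nuclear protein on chromosome X, had 2 and 1 reads in shTet2 and 307 and 268 in shMbd3, a ratio of 171 (58.1 to 829). Unlike St8sia2, Pir was also low in shControl, at 0.503 and 0.910 CPM. Arap3, a GTPase-activating protein, measured 0.756 and 0.747 CPM in shTet2 and 29.8 and 34.2 CPM in shMbd3 (-4.63 ± 0.28, adjusted p = 3.35e-05). Gpa33, an epithelial surface antigen, measured 1.23 and 1.54 CPM against 31.8 and 50.6 CPM (-4.36 ± 0.30).

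The remaining 8 of the 12 largest negative differences ran from -4.36 to -3.86. They were Slco4a1 (an organic anion transporter), Nol4l, Glp1r (the receptor of glucagon-like peptide 1), Sema7a (a membrane-anchored semaphorin), Adgra2 (an adhesion G-protein-coupled receptor of Wnt7 signalling), C1qtnf6, Brinp3 and Cyfip2. Sema7a measured 3.40 and 2.59 CPM in shTet2, 71.4 and 61.2 CPM in shMbd3 and 39.4 and 73.7 CPM in shControl, so that its level in shTet2 was the one that stood apart. Cyfip2, a subunit of the WAVE actin-regulatory complex, was also lowest in shTet2 by far (0.331 and 0.299 CPM, against 11.8 and 11.9 CPM in shMbd3 and 12.4 and 14.6 CPM in shControl). Brinp3 was the reverse case, at 2.03 and 4.08 CPM in shTet2 and 3.75 and 5.03 CPM in shControl, and 47.5 and 60.2 CPM in shMbd3.

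On the other side, Klk10 (chromosome 7, 43781054-43785410), a kallikrein serine protease, had the largest positive difference. It measured 37.6 and 40.9 CPM in shTet2 and 0.751 and 0.758 CPM in shMbd3, with shControl between at 9.38 and 10.8 CPM (5.06 ± 0.17, adjusted p = 6.55e-07). Complement component C3 followed with 51.5 and 47.7 CPM against 3.84 and 3.12 CPM (3.75 ± 0.25). The organic anion transporter Slco3a1 measured 6.38 and 7.17 CPM against 0.0417 and 0.178 CPM, and the calcium-binding protein S100a7a 23.5 and 23.9 CPM against 2.17 and 1.20 CPM. Prkaa2, a catalytic subunit of the energy sensor AMPK, measured 18.0 and 16.8 CPM in shTet2 and 1.25 and 1.16 CPM in shMbd3, with shControl at 15.5 and 10.9 CPM. The planar polarity protein Prickle2, the lipoprotein receptor Vldlr, Calr4, the mitochondrial adenylate kinase Ak4, the cadherin Cdh26, Slc35f2 and Sybu made up the 12, with differences of 3.33 down to 2.66.

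The 43 gene lists differed in how many members passed, and the share of all genes that passed each way, 9.53% higher and 9.63% lower, is the background for each count. Interferon-stimulated genes, MHC presentation and the Wnt pathway had the most members lower in shTet2. Extracellular proteases, glycolysis and hypoxia, cholesterol synthesis and ribosomal proteins had the most members higher.

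Without the untreated shControl pair, where 22.8% of all genes were higher and 22.5% lower, most lists gained calls in both directions. Among the epithelial lists, cadherins and catenins then had 1 higher and 6 lower, tight junction genes 7 and 4, desmosome and keratin genes 6 and 4, transcription and splicing genes 6 and 1, and proteases, kinases and trafficking genes 6 and 7. EMT transcription factors had 6 and 7, genes of the mesenchymal cytoskeleton and surface 9 and 6, matrix genes 3 and 10, collagens 3 and 10 and integrins 6 and 4. Extracellular proteases stayed at 16 higher and 4 lower and interferon-stimulated genes at 2 and 17, while MHC presentation had 2 and 12, and chemokines and cytokines 5 and 10. Among signalling lists the Wnt pathway had 7 and 15, Notch 2 and 7, TGF-beta and BMP 10 and 12, receptor tyrosine kinases 11 and 11, AP-1 and immediate early genes 13 and 4, Hippo and YAP targets 4 and 6, and axon guidance 9 and 12. Cholesterol synthesis had 13 and 1, fatty acid and lipid genes 10 and 7, Nrf2 and glutathione genes 13 and 5, and ribosomal proteins 22 and 1. Cyclins and CDK inhibitors had 3 and 7, p53 targets 6 and 3, apoptosis regulators 7 and 10, DNA methylation genes 4 and 7, Polycomb genes 5 and 8, neuronal genes 1 and 6, oncofetal regulators 2 and 3, imprinted and germline genes 3 and 0, and luminal markers 5 and 1.

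**Figure D3:**
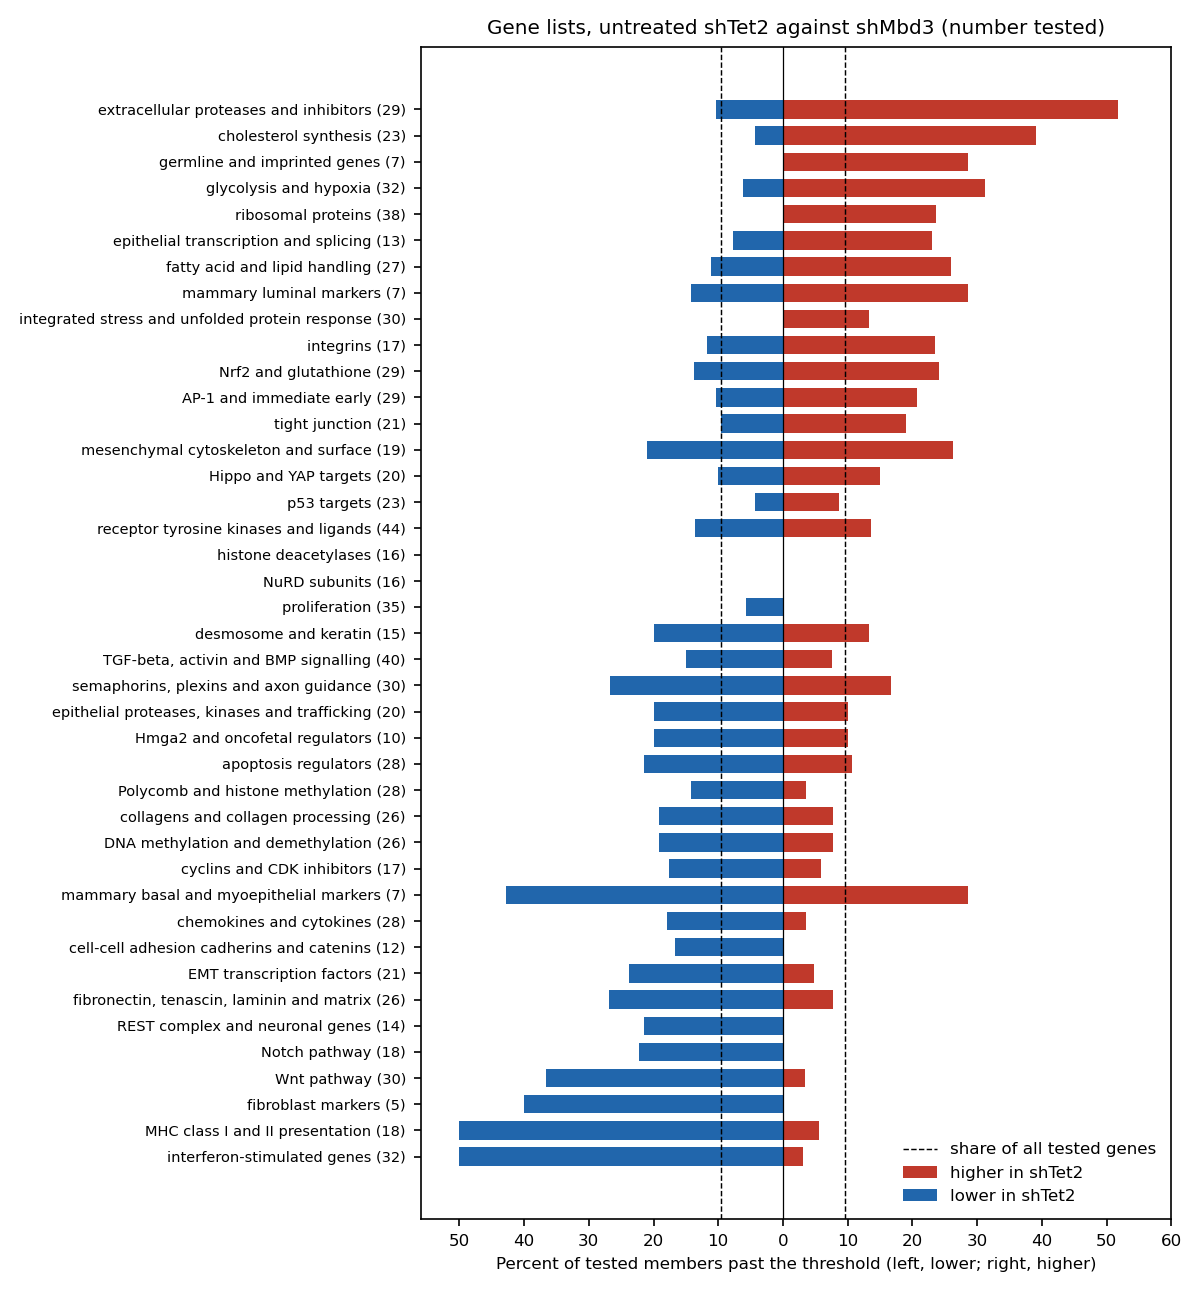
Percent of the tested members of each gene list that passed the threshold, higher in shTet2 to the right (red) and lower to the left (blue), with the number tested in brackets and lists of under 5 tested genes left out. Dashed lines mark the shares of all tested genes, 9.53% and 9.63%.

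Of 32 interferon-stimulated genes tested, 16 were lower in shTet2, 1 was higher and 15 did not pass, with a median of -0.59 against -0.002 for all genes. Of the 16, 9 passed under every omission of a library. They span sensors and effectors of antiviral defence, which interferons switch on through the interferon-stimulated response element (ISRE). Gbp7, an interferon-induced guanylate-binding protein, measured 0.897 and 0.498 CPM in shTet2 and 8.52 and 9.46 CPM in shMbd3, with shControl at 9.93 and 6.52 CPM (-2.94 ± 0.28, adjusted p = 0.000220). Igtp, an immunity-related GTPase, measured 0.567 and 0.199 CPM in shTet2 and 4.68 CPM in both shMbd3 libraries, with shControl at 2.97 and 3.35 CPM (-2.53 ± 0.26). Rtp4 measured 0.331 and 0.448 CPM against 3.17 and 3.44 CPM, with shControl highest at 5.77 and 6.32 CPM (-2.04 ± 0.18). In all 3, both shTet2 libraries lay below the other 4. Of all tested genes, 44.3% had both shTet2 libraries below both shMbd3 libraries. Ifit2, an interferon-induced RNA-binding protein, ran the other way with 46.7 and 42.9 CPM in shTet2 and 17.9 and 18.0 CPM in shMbd3 (1.39 ± 0.21), and there shControl, at 57.4 and 38 CPM, lay with shTet2. Of the 32 genes 7 lie on chromosome 11, and without them 10 were lower and 1 higher of 25, with a median of -0.27. Less RNA per cell and fewer expressing cells cannot be told apart in these bulk samples.

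The 250 bases upstream of the start are shown for the pair with the largest negative differences of this list, from RefSeq on GRCm38.p6. The ISRE letters, GAAANNGAAA or TTTCNNTTTC on either strand, are in capitals, each promoter is read in the direction of its gene, and both lie on the plus strand. The first is Gbp7 (chr3:142530086-142530335), with its match 53 bases before the start, and the second Igtp (chr11:58199306-58199555), with its match 34 bases before it.
Gbp7: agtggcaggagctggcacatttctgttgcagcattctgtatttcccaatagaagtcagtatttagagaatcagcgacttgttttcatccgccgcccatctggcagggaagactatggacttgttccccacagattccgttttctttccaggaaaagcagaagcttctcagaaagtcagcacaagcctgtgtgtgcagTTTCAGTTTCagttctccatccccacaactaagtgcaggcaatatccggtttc
Igtp: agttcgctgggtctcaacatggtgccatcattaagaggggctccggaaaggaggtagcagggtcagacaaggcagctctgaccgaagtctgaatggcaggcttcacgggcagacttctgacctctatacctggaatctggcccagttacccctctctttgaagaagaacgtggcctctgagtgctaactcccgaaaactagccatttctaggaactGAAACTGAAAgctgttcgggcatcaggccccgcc
The motif was chosen after the values were seen. It stood in 3.72% of the 10087 tested genes with a 300-base promoter in the table, in 5 of the 11 lower interferon genes and in 8 of the 12 that did not pass, so it did not separate the lower members from the rest of the list. Across all genes it stood in 6.48% of the lower and 3.34% of the higher ones.

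MHC class I and II presentation gave 9 lower and 1 higher of 18, with a median of -0.85, and none of its tested members lies on chromosome 11. The 3 of the 9 that passed under every omission included Psmb8, a catalytic subunit of the immunoproteasome, with 2 and 3 reads in shTet2 and 64 and 47 reads in shMbd3. That is 19.7 times more in shMbd3 (95% counting interval 8.21 to 62.0), and in shControl its level was 0.183 and 0.767 CPM, nearer to shTet2. Psmb9, another immunoproteasome subunit, measured 0.0945 and 0.149 CPM against 1.13 and 1.16 CPM (-1.37 ± 0.27, adjusted p = 0.00852), which became 0.0617 without shTet2 replicate 1, 0.0555 without shMbd3 replicate 1 and 0.0564 without shMbd3 replicate 2. Tap2, a subunit of the peptide transporter, measured 2.93 and 2.49 CPM against 10.2 and 11.5 CPM (-1.74 ± 0.38, adjusted p = 0.0132), with 0.0600 to 0.0884 without any 1 of the 4 libraries. These 3 genes lie close together on chromosome 17. Summed over the 22 genes of the MHC list, the level ran the other way. It was 4294 and 3968 CPM in shTet2 and 3714 and 3511 CPM in shMbd3, with shControl at 4604 and 3441 CPM. The count of lower members therefore does not mean less RNA over the list as a whole. Of 28 chemokines and cytokines 5 were lower and 1 higher, and off chromosome 11 these counts were 3 and 1.

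**Figure D4:**
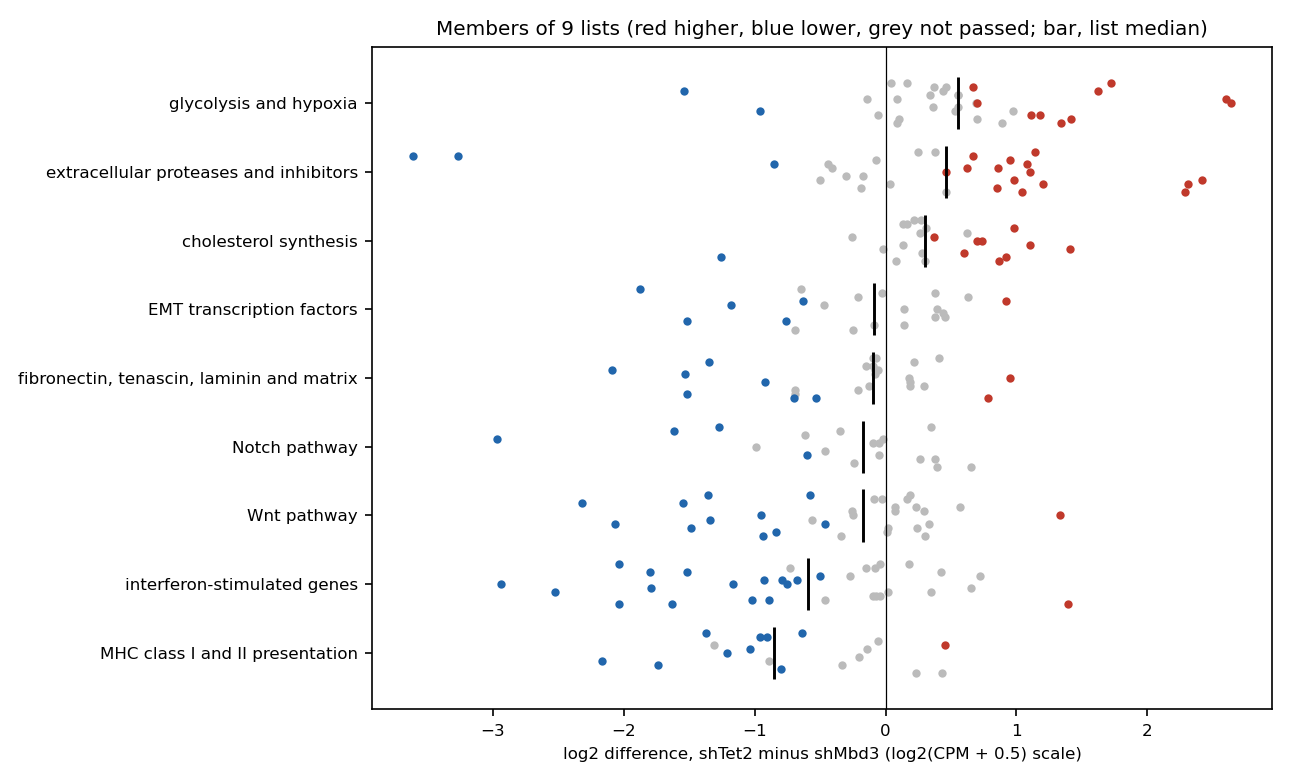
Difference of each tested member of 9 lists (points; horizontal axis, shTet2 minus shMbd3 on the log2(CPM + 0.5) scale), red where higher, blue where lower and grey where not passed, with a black bar at the list median. The medians run from -0.85 for MHC presentation to 0.55 for glycolysis and hypoxia, and single members reach -3.61 and 2.64.

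Of 32 genes of glycolysis and the hypoxia response, 10 were higher in shTet2, 2 were lower and 20 did not pass, with a median of 0.55, and without the untreated shControl pair 22 were higher and 2 lower. Of the 10, 8 passed under every omission. Hypoxia-inducible factors raise many of these genes when oxygen is short. Car9, a carbonic anhydrase of the cell surface, measured 50.2 and 50 CPM in shTet2 and 5.55 and 11.7 CPM in shMbd3, with shControl at 7.87 and 13.8 CPM (2.64 ± 0.30, adjusted p = 0.000486). Bnip3, a mitophagy receptor, measured 111 and 100 CPM against 16.2 and 20.3 CPM, with shControl between at 48.2 and 46.0 CPM (2.60 ± 0.17). Pfkp, the platelet type of phosphofructokinase, measured 85.4 and 79.3 CPM against 27.4 and 25.3 CPM, with shControl at 20 and 27.2 CPM (1.72 ± 0.14). For Car9 and Pfkp shTet2 was the group apart. Egln3, a prolyl hydroxylase that marks hypoxia-inducible factors for decay and is itself a target of theirs, ran against the list at 38.8 and 33.6 CPM in shTet2 and 110 and 115 CPM in shMbd3 (-1.54 ± 0.15).

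The upstream 250 bases of the 2 members with the largest differences, Car9 (chr4:43506776-43507025, plus strand) and Bnip3 (chr7:138909507-138909756, minus strand), hold the letters ACGTG or CACGT, the core bound by hypoxia-inducible factors, shown in capitals and read in the direction of the gene.
Car9: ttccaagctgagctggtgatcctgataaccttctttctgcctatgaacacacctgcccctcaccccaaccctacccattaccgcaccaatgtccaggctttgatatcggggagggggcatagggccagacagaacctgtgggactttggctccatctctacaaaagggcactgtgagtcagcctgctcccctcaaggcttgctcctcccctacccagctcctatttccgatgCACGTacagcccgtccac
Bnip3: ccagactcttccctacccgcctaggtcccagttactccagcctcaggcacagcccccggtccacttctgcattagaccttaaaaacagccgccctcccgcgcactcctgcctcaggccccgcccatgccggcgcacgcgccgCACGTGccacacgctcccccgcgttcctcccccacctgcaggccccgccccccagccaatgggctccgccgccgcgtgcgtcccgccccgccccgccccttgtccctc
In Bnip3 the forward and reverse letters overlap in 1 palindrome. These 5 letters are common: they stood in the 300-base promoters of 29.1% of tested genes. Among list members with a promoter in the table they stood in 4 of the 7 higher, 2 of the 2 lower and 13 of the 20 that did not pass. Across all genes they stood in 32.8% of the higher and 22.1% of the lower ones. This motif too was chosen after the values were seen.

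Cholesterol synthesis gave 9 higher and 1 lower of 23, with a median of 0.30, and 7 of the 9 passed under every omission. Msmo1, a sterol demethylating enzyme, measured 322 and 352 CPM in shTet2, 128 and 141 CPM in shMbd3 and 168 and 170 CPM in shControl (1.41 ± 0.10, adjusted p = 5.07e-05). Insig1, a sterol sensor that holds back the pathway, was higher by 1.10 ± 0.19 and the isomerase Idi1 by 0.98 ± 0.15. Hsd17b7, an enzyme of the same pathway, was the exception at 26.1 and 33.7 CPM against 71.8 and 81.1 CPM (-1.26 ± 0.17). Fatty acid and lipid genes gave 7 higher and 3 lower of 27, among them the elongase Elovl6 (211 and 199 CPM against 87.6 and 104 CPM, 1.18 ± 0.14) and the desaturase Scd1 (771 and 822 CPM against 420 and 498 CPM, 0.89 ± 0.14).

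Extracellular proteases and their inhibitors had the largest share of higher members, 15 of 29, with 3 lower and a median of 0.46, and single enzymes differed sharply in both directions. Mmp9, a gelatinase, measured 1.42 and 1.64 CPM in shTet2 and 28.6 and 23 CPM in shMbd3, with shControl at 2.38 and 2.35 CPM (-3.61 ± 0.16, adjusted p = 5.26e-06). Adamts9, a proteoglycan-cleaving protease, measured 0.850 and 0.847 CPM in shTet2 and 13.0 and 13.3 CPM in shMbd3, with shControl highest at 25.8 and 26.0 CPM (-3.27 ± 0.14). So shMbd3 was the group apart for Mmp9 and shTet2 for Adamts9. Mmp3, a stromelysin, measured 69.3 and 62.6 CPM in shTet2 and 12.7 and 14.8 CPM in shMbd3 (2.31 ± 0.24). The collagenase Mmp13 measured 58.2 and 74.0 CPM against 12.5 and 15.3 CPM (2.29 ± 0.22), and Adam22 21.3 and 20.4 CPM against 3.09 and 4.51 CPM (2.42 ± 0.28). Of the 15 higher genes, 8 passed under every omission.

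The 2 lists of matrix genes had more members lower in shTet2 than higher. Fibronectin, tenascin, laminin and other matrix genes gave 7 lower and 2 higher of 26, with a median of -0.10, and collagens and collagen-processing genes 5 lower and 2 higher of 26, with a median of -0.15. Sparc, a collagen-binding matrix protein on chromosome 11, measured 442 and 366 CPM in shTet2 and 841 and 782 CPM in shMbd3 (-0.92 ± 0.13), and Ccn4, a Wnt-induced matricellular protein, 10.4 and 7.62 CPM against 29.1 and 27.6 CPM (-1.53 ± 0.16). The proteoglycan biglycan (Bgn) had 2 reads in each shTet2 library and 51 and 47 in shMbd3, and the basement-membrane protein nidogen (Nid1) measured 0.142 and 0.398 CPM against 1.54 and 1.96 CPM. Col12a1, a fibril-associated collagen, was lower by -1.40 ± 0.25 and the matrilin Matn2 higher by 0.95 ± 0.17. Of 17 integrins 4 were higher and 2 lower, and the largest difference was that of Itgb3, the β3 subunit of the vitronectin receptor, on chromosome 11, at 1.09 and 1.99 CPM in shTet2, 13.1 and 14.9 CPM in shMbd3 and 1.28 and 1.72 CPM in shControl (-2.79 ± 0.23).

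In the Wnt pathway 11 genes were lower and 1 higher of 30, with a median of -0.17. Sfrp1, a secreted antagonist that binds Wnt ligands, measured 2.83 and 2.09 CPM in shTet2 and 15.7 and 14.4 CPM in shMbd3 (-2.32 ± 0.25), and the ligand Wnt10a 3.45 and 2.69 CPM against 17.1 and 13.6 CPM (-2.07 ± 0.19). The lower members thus included an antagonist as well as a ligand, and the receptor Ror1 was the member that was higher (1.33 ± 0.23). Of the 11, 4 passed under every omission, and off chromosome 11 the counts were 9 and 1. In the Notch pathway 4 genes were lower and none higher of 18 by limma, and 3 of the 4 passed under every omission. Dll4, a Notch ligand, measured 0.236 and 0.149 CPM in shTet2 and 4.55 and 5.67 CPM in shMbd3, with shControl at 0 and 0.0958 CPM (-2.97 ± 0.29). The ligand Jag1 measured 11.2 and 8.82 CPM against 37.2 and 30.5 CPM (-1.62 ± 0.24) and the receptor Notch4 0.378 and 0.548 CPM against 2.30 and 1.56 CPM (-1.27 ± 0.21). For both ligands shMbd3 was the group above shControl, where Jag1 measured 11.8 and 8.91 CPM.

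TGF-beta, activin and BMP genes gave 3 higher and 6 lower of 40, with a median of -0.04. The ligand Bmp7 measured 5.19 and 4.58 CPM in shTet2 and 25.3 and 27.0 CPM in shMbd3 (-2.22 ± 0.23). Grem1, a secreted BMP antagonist, was lower too, at 2.60 and 4.88 CPM against 21.4 and 23.6 CPM, with shControl at 48.9 and 72.8 CPM (-2.41 ± 0.37). Of the receptors, the activin type II receptor Acvr2b was lower (-1.10 ± 0.15) and the TGF-beta type II receptor Tgfbr2 higher, at 192 and 186 CPM against 127 and 114 CPM (0.74 ± 0.11). Receptor tyrosine kinases and their ligands gave 6 higher and 6 lower of 44, and the ligands named by rule split between families. The platelet-derived growth factors Pdgfa (24.0 and 19.9 CPM against 95.7 and 96.4 CPM, -2.02 ± 0.27) and Pdgfb (5.24 and 5.13 CPM against 30.7 and 32.3 CPM, -2.41 ± 0.30) and the lymphatic growth factor Vegfc (7.04 and 6.97 CPM against 37.9 and 33.5 CPM, -2.18 ± 0.18) were lower. Kitl, the ligand of the Kit receptor, was higher at 101 CPM in both shTet2 libraries against 31.3 and 35.6 CPM (1.67 ± 0.22), as was the EGF-receptor ligand Tgfa, at 87.1 and 84.1 CPM against 40.5 and 34.5 CPM (1.27 ± 0.15).

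Of 29 AP-1 and immediate early genes, which respond to such ligands within minutes, 6 were higher and 3 were lower, with a median of 0.28. Egr2, an early zinc-finger factor, was higher by 1.03 ± 0.16, and Spry4, a feedback inhibitor of receptor tyrosine kinase signalling, was lower at 4.96 and 4.98 CPM against 22.8 and 18.9 CPM (-1.88 ± 0.22). Semaphorins, plexins and axon guidance genes gave 5 higher and 8 lower of 30. Slit2, a secreted guidance ligand, measured 116 and 119 CPM in shTet2 and 46.9 and 55.5 CPM in shMbd3 (1.29 ± 0.12), and the semaphorin receptor Plxna2 was higher by 1.10 ± 0.12. Besides Sema7a, Sema4f was lower, at 0.283 and 0.398 CPM against 3.30 and 3.93 CPM (-2.24 ± 0.24), and so was the netrin receptor Unc5b, at 71.9 and 76.3 CPM against 225 and 246 CPM (-1.57 ± 0.25). Of 14 REST complex and neuronal genes none was higher and 3 were lower by limma, Brinp3 and the pentraxin Nptx1 (-0.92 ± 0.12) among them.

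Of 35 proliferation genes none was higher and 2 were lower by limma, with a median of -0.04, and without the untreated shControl pair 7 were higher and 11 lower, against 22.8% and 22.5% of all genes. Cyclins and CDK inhibitors gave 1 higher and 3 lower of 17, with cyclin E1 (Ccne1) at 20.8 and 23 CPM in shTet2 and 47.7 and 42.0 CPM in shMbd3 (-0.93 ± 0.12) and the cell cycle factor E2f2 lower by -0.84 ± 0.14. Cdkn1a, the CDK inhibitor p21, measured 168 and 138 CPM against 209 and 192 CPM and did not pass (adjusted p = 0.120, and 0.0225 without the untreated shControl pair). Hmga2, a chromatin protein of embryonic and tumour cells, measured 1532 and 1618 CPM against 1985 and 2028 CPM and did not pass either (0.167, and 0.0109 without that pair). Igf2bp2, an mRNA-binding protein of the same oncofetal list (1 higher and 2 lower of 10), was higher by 0.73 ± 0.09. Of 23 p53 targets 2 were higher and 1 was lower.

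Among 28 apoptosis regulators 3 were higher and 6 lower. The caspases Casp1 (8.31 and 9.31 CPM against 24.0 and 29.5 CPM, -1.46 ± 0.25) and Casp12 (-1.42 ± 0.25) were lower, the first being the inflammasome caspase, and Bcl2l2, an anti-apoptotic Bcl-2 relative, was higher at 31.6 and 29.4 CPM against 14.4 and 9.68 CPM (1.42 ± 0.20). Of 30 unfolded protein and integrated stress response genes 4 were higher and none was lower by limma, and without the untreated shControl pair 10 were higher and 2 lower. Slc7a5, an amino acid transporter, measured 84.4 and 87.3 CPM in shTet2 and 23.3 and 25.2 CPM in shMbd3 (1.89 ± 0.19). Nrf2 and glutathione genes gave 7 higher and 4 lower of 29, with the extracellular superoxide dismutase Sod3 at 31.2 and 33.5 CPM against 8.56 and 9.19 CPM (1.90 ± 0.18), the sulfiredoxin Srxn1 higher by 0.68 ± 0.11 and the glutathione transferase Gstm2 at 3.16 and 3.24 CPM against 15.9 and 19.2 CPM (-2.20 ± 0.20). Of 38 ribosomal protein genes 9 were higher, none was lower by limma and 29 did not pass, with a median of 0.29, and 0 of the 9 passed under every omission.

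Of 7 imprinted and germline genes tested, out of 27 listed, 2 were higher and none lower by limma. These were the paternally expressed Mest, at 58.1 and 69.7 CPM in shTet2 and 23 and 26.0 CPM in shMbd3 (1.45 ± 0.14), and the maternally expressed receptor Igf2r, at 248 and 228 CPM against 116 and 121 CPM (1.10 ± 0.11). Mammary luminal markers gave 2 higher and 1 lower of 7, with the milk casein Csn3 (22.1 and 18.7 CPM against 6.14 and 7.41 CPM, 1.61 ± 0.18) and the oestrogen receptor Esr1 (20.4 and 22.1 CPM against 8.93 and 8.92 CPM, 1.3 ± 0.21) higher. Of 7 basal and myoepithelial markers 2 were higher and 3 lower, with a median of -0.17. Off chromosome 11 these counts were 2 and 0 of 4, with a median of 0.55. Procr, a receptor that marks mammary stem cells, was among the higher ones (1.24 ± 0.16). Hippo and YAP targets gave 3 higher and 2 lower of 20.

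Markers of other cell types were low in these libraries. The summed level of 8 haematopoietic markers was 2.94 to 3.69 CPM in shTet2 and 1.50 to 2.18 CPM in shMbd3, with 4 of the 8 at 0 reads in all 4 libraries. That of 5 endothelial markers was 0.249 to 0.331 CPM in shTet2 and 0.375 to 0.669 CPM in shMbd3, and that of 8 fibroblast markers 18.4 to 18.6 CPM and 17.3 to 19 CPM, with 3 of the 8 at 0. The part of other cells in the differences above was not tested. Summed over 10 epithelial markers the level was 3699 to 4189 CPM in shTet2 and 2748 to 2856 CPM in shMbd3. Over 6 mesenchymal markers it was 2948 to 3064 CPM and 2815 to 3117 CPM, so both sets were expressed in both populations. The mesenchymal sum rested mostly on Fn1, at 2232 and 2326 CPM in shTet2 and 2009 and 2290 CPM in shMbd3. Within that set Prrx1, Vim and Zeb1 lay lower in shTet2 and Cdh2 and Twist1 higher, of which only Prrx1 passed over all 12 libraries. The epithelial sum was 997 and 2529 CPM in shControl and rested mostly on 2 keratins, which with Cldn4 are named after their values were seen. Krt8 measured 1143 and 1321 CPM in shTet2 and 692 and 691 CPM in shMbd3 (0.92 ± 0.37, adjusted p = 0.121) and Krt18 1786 and 2032 CPM against 1271 and 1280 CPM (0.67 ± 0.28, 0.129), and without the untreated shControl pair both passed (3.2e-06 and 2.19e-05). The claudin Cldn4 lay the other way, at 57.7 and 71.5 CPM against 94.9 and 117 CPM, and passed only without that pair (0.325 and 0.00935).

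The same contrast could be read in 4 other libraries, treated with CI994 and not used above other than for the spread. There 2803 genes passed (21.9%), 1420 higher (11.1%) and 1383 lower (10.8%). Of the 2453 genes called without the drug, 1667 were called in the same direction with it, which is 68.0% of the calls without and 59.5% of the calls with CI994, and 6 were called in the opposite direction. In sign alone, 2382 of the 2453 were alike. Across all tested genes the differences without and with the drug had a Pearson correlation of 0.806, a description over genes that are not independent, between contrasts that share no library.

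All 24 of the largest differences, 12 each way, were called in the same direction under CI994, but many differed in size. The difference moved by under 0.3 on the log2 scale in 8 of them and by over 0.6 in 11. St8sia2 was -6.27 without and -6.25 with the drug and Vldlr 3.28 and 3.26, whereas Calr4 was 3.13 and 1.35, C1qtnf6 -3.93 and -2.48, and Sema7a -4.18 and -5.54. The change passed by limma for 0 of the 24 over 12 libraries (10 at an unadjusted p under 0.05) and for 6 without the untreated shControl pair. Of the 43 list medians 6 had the other sign under CI994. Among those that kept theirs, medians under CI994 were -0.49 for interferon-stimulated genes (15 lower and 4 higher), -0.39 for MHC presentation (6 and 2), 0.38 for glycolysis and hypoxia (10 higher and 2 lower) and 0.48 for extracellular proteases (12 and 4). State genes that did not pass without the drug moved in both directions with it. The difference was smaller with CI994 for Epcam (-0.28 without and -0.02 with it), Twist1 (0.38 and -0.05) and Snai1 (0.63 and 0.52). It was alike for Grhl2 (0.05 and 0.06). For Cdh1, Cdh2, Vim, Fn1, Zeb1, Zeb2, Snai2 and Ovol2 it was larger in size. With the drug Cdh1 measured 319 and 320 CPM in shTet2 and 212 and 201 CPM in shMbd3 (0.66, adjusted p = 0.0171). Fn1 measured 8023 and 6858 CPM against 3315 and 3602 CPM (1.13, adjusted p = 0.00341). The change of the difference itself passed for neither over all 12 libraries (adjusted p = 0.770 for Cdh1 and 0.334 for Fn1), and without the untreated shControl pair it passed for Fn1 (0.00775) and not for Cdh1 (0.0555). Dsg2, lower in shTet2 without the drug, measured 19.9 and 13.1 CPM against 14.1 and 14.7 CPM with it (0.19), a change that did not pass over 12 libraries (adjusted p = 0.108) and passed without that pair (0.00932).

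The change of the shTet2 minus shMbd3 difference with CI994 passed for 4 genes (0.0312%), where 979 had an unadjusted p under 0.05, and for 534 (4.17%) without the untreated shControl pair. On the recovered reads edgeR called 0 genes and DESeq2 43. Leaving out 1 of the 8 knockdown libraries left 2 or 3 calls. Scn3a, a neuronal sodium channel subunit, had 1 read or none in each of the 4 untreated knockdown libraries (0.0472 CPM and 0 in shTet2). With CI994 it measured 21.4 and 15.2 CPM in shTet2 and 0.126 and 0.0622 CPM in shMbd3, so the difference appeared in the treated cells. Cyp21a1, a steroid hydroxylase with a near-identical pseudogene copy that could share its reads, went from 0.283 and 0.398 CPM against 0.0417 and 0.134 CPM to 7.73 and 6.30 CPM against 0.421 and 0.124 CPM. Its call was lost without any 1 of these 8 libraries (adjusted p = 0.0664 to 0.204) other than the treated shMbd3 replicate 1. The platelet chemokine Ppbp turned round, at 9.07 and 8.07 CPM in shTet2 against 3.30 and 3.35 CPM in shMbd3 without the drug (1.33 ± 0.15) and 6.09 and 7.60 CPM against 10.1 and 9.82 CPM with it (-0.49, adjusted p = 0.0481), and its call for the change was lost without any 1 of the 8 (0.0757 to 0.302). The fourth, the long noncoding RNA U90926, lies outside the rule for named genes and is named because it completes the count: it measured 1.98 and 1.69 CPM against 0 reads without CI994, and 37.9 and 38.5 CPM against 0.631 and 0.622 CPM with it.

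Chromosome 11 had the lowest median difference and the largest share of lower genes of the 20 chromosomes. Of its 1057 tested genes, 230 (21.8%) were lower in shTet2 and 33 (3.12%) higher, against 9.63% and 9.53% of all genes, with a median difference of -0.32. Both shTet2 libraries lay below both shMbd3 libraries for 70.4% of its genes, against 44.3% of all tested genes, and the reverse held for 10.6% against 29.3%. Over all genes the 2 groups did not overlap in 73.6%. Its share of called genes, 24.9%, was not the largest, which was 28% on chromosome 18 with 18.0% lower, and on chromosome 1 16.2% were lower. On chromosome 11 the shift ran along the chromosome: in all 13 windows of 10 Mb the median was below 0, between -0.44 and -0.11. It was also present in the treated libraries, with a median of -0.26 and all 13 windows between -0.43 and -0.17. Without CI994, where the control lies between them depends on the control library, after subtracting the median of all genes. Against untreated shControl replicate 2 the medians of chromosome 11 were -0.19 in both shTet2 libraries and 0.11 and 0.12 in the shMbd3 libraries. Against replicate 1, whose Mbd3 level goes against its label, they were -0.01 and 0.01 in shTet2 and 0.28 and 0.31 in shMbd3. An effect of the shRNA targets and any other difference between the carrying populations cannot be told apart in these data. The other chromosome medians lay between -0.13 (chromosome 1) and 0.18 (chromosome 15) without CI994.

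**Figure D5:**
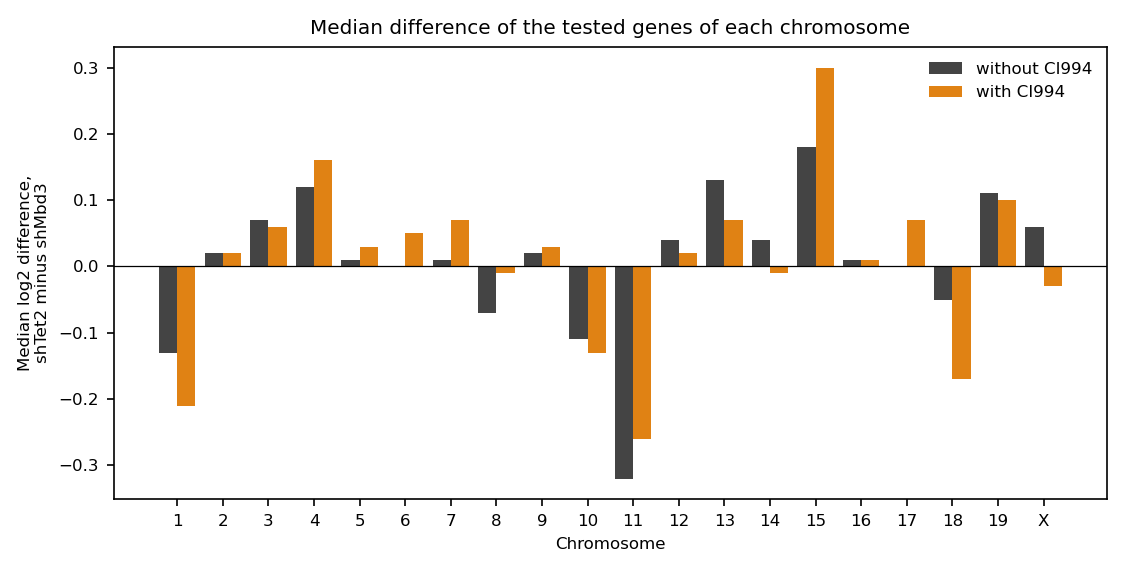
Median difference (shTet2 minus shMbd3, log2(CPM + 0.5) scale, vertical axis) of the tested genes of each chromosome, without CI994 (grey) and with CI994 (orange). Chromosome 11 is the lowest in both, at -0.32 and -0.26, and chromosome 15 the highest, at 0.18 and 0.30.

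The contrast also moved with base composition. Over 10 equal groups of genes by GC content of their transcripts the median difference went from 0.20 in the lowest to -0.19 in the highest, and the median GC content was 47.3% in the higher genes, 50.9% in the lower genes and 49.6% in those that did not pass. With each library's trend along GC content removed, 4485 genes passed, and the median of chromosome 11 was -0.28. Of the 114 called genes named here, 113 still passed after that removal.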

How the data were processed

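The authors deposited CPM per gene for 12 M3 shRNA libraries (TruSeq stranded total RNA per the labels); the submitters' processing notes name STAR and mm10, and how reads were counted is not given in the sources used here. In each library all CPM values (100%) were whole multiples of the worth of 1 read, to within 0.01 reads, so reads were recovered, 16086082 to 24977595 per library. The RPKM files of other cells were not used here, and 0 columns stayed unmapped. Gene IDs were matched to RefSeq GRCm38.p6 for 99.7% of genes; the count per gene was taken as deposited.

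Limma 3.58.1 (R 4.3.3) was run on log2(CPM / TMM factor + 0.5), with trend and robust settings, group as the only term and Benjamini-Hochberg adjustment. EdgeR 4.0.16 (2438 calls) and DESeq2 1.42.0 (2858) were run on the recovered reads. On simulated data of this contrast (12512 genes), limma found 63% of 100 genes changed 2-fold and 93% of 100 changed 4-fold, with 7 false calls. Apart from the changed genes, the simulation gave all 12 libraries the same mean and dispersion per gene. It held no wider shControl pair, no GC trend and no shift of a chromosome, so these rates may not hold for the real libraries.

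Members and lists were chosen with earlier results of these data known. Named genes were a fixed set of targets and state markers, the 12 largest differences each way (both libraries apart, mean of at least 5 CPM, no numbered models), up to 3 each way per list with at least 1 CPM, and changes of the difference with CI994; 1 gene so chosen is not reported here. Alternatives covered scaling, filter, pseudocount, GC trend, replicate block, tool and omitted libraries.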

Additional observations from a re-analysis of the deposited data

Results flagged for a closer look

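For 3 genes the shTet2 minus shMbd3 difference changed with CI994 by a test of the change itself (limma, adjusted p under 0.05). The change was 4.89 on the log2 scale for Scn3a (adjusted p = 0.000260), 2.76 for Cyp21a1 (0.0244) and -1.82 for Ppbp (0.0402). In each of the 3, both shTet2 libraries lay on one side of both shMbd3 libraries under CI994. Such separation says little by itself, since without CI994 it held for 73.6% of all tested genes. The calls of Cyp21a1 and Ppbp were lost at a pseudocount of 0.1 (adjusted p = 0.257 and 0.0986) and by edgeR's quasi-likelihood test on the recovered reads (0.750 and 0.158), that of Ppbp also with library size alone (0.0583) and that of Cyp21a1 by DESeq2 (0.618). Without 1 of the 8 knockdown libraries Cyp21a1 came to 0.0196 to 0.204, passing only without the treated shMbd3 replicate 1, and Ppbp to 0.0757 to 0.302. Scn3a passed under each of these omissions, but not by edgeR (0.994) or DESeq2 (0.412).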

How the results depend on the processing

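All settings named here keep the rest of the test as reported. Called without CI994 were 2453 genes (1220 higher, 1233 lower), and this count came to 5796 (2917, 2879) without both untreated shControl libraries, 5603 (2746, 2857) with only the 4 libraries compared, 4485 (2194, 2291) with the GC trend removed, 1164 (573, 591) at an adjusted p under 0.01 and 823 (396, 427) at an absolute log2 difference of 1. Leaving out 1 library gave 1044 to 5788 (519 to 2916, 525 to 2872), the high values being those without an untreated shControl library. With CI994 the 2803 calls became 6006, 5593 (only the 4 treated libraries), 4897, 1391 and 948 in the same order, and 1299 to 6003 with 1 library left out. The 4 changes of the difference became 534 without the shControl pair, 425 with only the 8 knockdown libraries, 70 with the GC trend removed, 38 with no filter, 1 and 24 at pseudocounts of 0.1 and 1, 0 by edgeR (limma had 979 at an unadjusted p under 0.05), 43 by DESeq2, 2 at an adjusted p under 0.01, and 2 to 547 with 1 library left out. The causes were not tested. Where 1 library was left out, the lone sample of its group was assumed to vary like the other groups.

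The labels do not say that replicate numbers mark an experiment, and the 2 pairs of the contrast deviated together with a correlation of 0.272 (0.096 to 0.524 over all 15 pairs of groups). With the replicate number as a block, 3165 genes passed without CI994, 3485 with it and 6 for the change, and with the block and the GC trend removed 5577 (2766 higher, 2811 lower), 5898 and 263.

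Of the 139 genes named, 114 were called, and none of these reversed under any setting run. Library size alone ended the call of Esrp1 (adjusted p = 0.0674), and removal of the GC trend that of Notch4 (0.0625). Among genes that were not called, the difference of Hdac1 (-0.05) and Grhl2 (-0.04) reversed with library size alone, and that of Scn3a (-0.08) with the GC trend removed, with and without the block. With 1 library left out Grhl2 ranged from -0.01 to 0.11 and Ovol2 from -0.37 to 0.54. Leaving out the genes of chromosome 11, chosen after seeing the data, left 2190 calls.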
